A study of Arabidopsis thaliana with 6 samples.

Results

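Leaves raise the transcripts of a set of genes when they are kept in darkness or run short of sugar, and 10 such genes of Arabidopsis thaliana are described here in a line whose aquaporin gene PIP1;2 carries a T-DNA insertion. The 10 were taken by AGI locus code from the deposited table of 28387 genes: DIN1, DIN2, DIN3, DIN4, DIN6 (the asparagine synthetase gene ASN1), DIN9, DIN10, DIN11, BCAT2 and DRM1, and all 10 had a value on every array. The insertion line, atpip1;2-1, was compared with the wild type N-60000. Each had 3 arrays of total RNA from leaves of greenhouse plants aged 3 weeks, with 5 plants pooled for each array, 15 plants a line and a photoperiod of 12 h. Both lines were kept at 24 °C by day and 20 °C by night and 60% relative humidity. The photon flux was 70 to 80 µmol and CO2 was 370 µmol per mol. No treatment with darkness or sugar was part of the design, the mutant was a single insertion allele, and the sources used here do not give the hour of harvest.

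When photosynthate runs out, leaf cells turn to protein, cell wall sugars and storage compounds as fuel. The SnRK1 protein kinase, active when energy is low, and bZIP transcription factors under it raise genes such as ASN1, while sucrose and glucose hold them down. Many products of these genes take apart branched-chain amino acids in mitochondria, move the released nitrogen into asparagine, or act on carbohydrates. In leaves they serve as markers of carbon starvation, and several also rise during senescence.

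ASN1 stood highest above the wild type among the 10 genes in mutant leaves, by close to 2-fold, and the other 9 showed smaller differences of either sign. None of the 10 passed the threshold, an adjusted p under 0.05 from limma over all genes, which 0.342% of all genes did. By unadjusted p, 1 of the 10 lay under 0.05, against 12.2% of all genes. The mutant arrays lay apart from the wild type arrays in 1 of the 10, against 18.5% of all genes. The mean was higher in the mutant for 6 of the 10 and lower for 4, with a median log2 fold change (mutant minus wild type) of 0.13, beside -0.01 over all genes. In bulk leaf RNA, a change in the share of cells that express a gene and a change within each cell cannot be told apart.

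**Figure D1:**
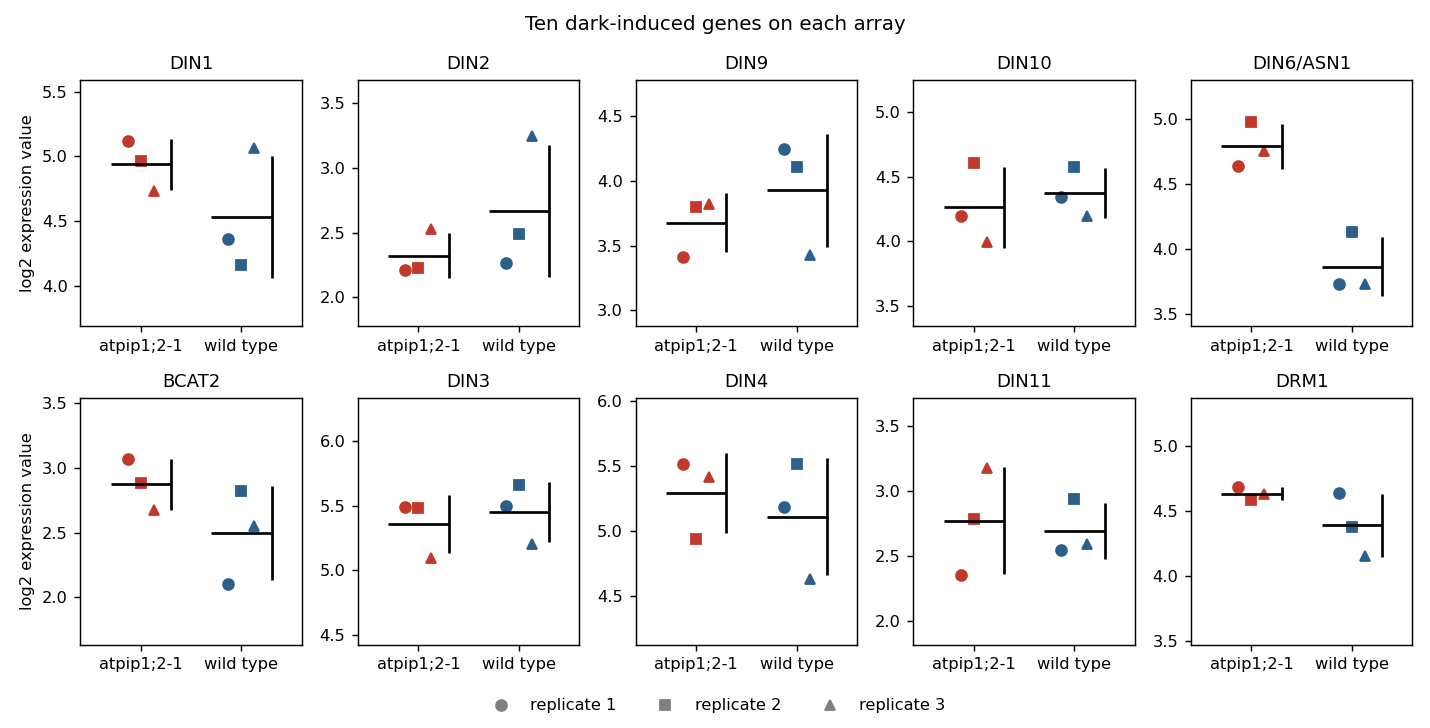
Log2 expression values (vertical axis, each panel spanning the same number of log2 units) of the 10 genes in atpip1;2-1 (left) and wild type (right). Points are single arrays, the horizontal line is the mean and the vertical line the SD (n = 3). ASN1 is the 1 gene whose lines do not overlap, with mutant arrays from 4.64 to 4.98 and wild type arrays from 3.73 to 4.13.

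The arrays themselves resembled each other, with correlations over genes between 0.975 and 0.989 and medians between 3.78 and 3.84. PIP1;2 transcript was lower in the insertion line, at 5.28 ± 0.20 against 8.87 ± 0.23 in the wild type (log2 values, SD, n = 3), with an adjusted p of 0.000148 from limma. The 5 leaf mesophyll markers lay above the 97th percentile of all genes on every array. Their summed level was 13.10 to 13.16 in the mutant and 12.81 to 12.84 in the wild type on the log2 scale, apart in every array. All 5 root markers and all 5 flower markers stayed under the 44th percentile, and 3 root and 1 flower marker stayed under the 25th on every array. The summed root level was 4.55 to 4.79 in the mutant and 4.60 to 4.63 in the wild type, and the summed flower level 4.58 to 4.68 and 4.55 to 4.80. The part of the mesophyll difference in the values that follow was not tested.

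ASN1, or DIN6 (AT3G47340), makes asparagine from aspartate with the amide nitrogen of glutamine, and is the asparagine synthetase gene of leaves in the dark. It had log2 values of 4.64, 4.98 and 4.75 on the mutant arrays, against 3.73, 4.13 and 3.73 on the wild type arrays. Every mutant array lay above every wild type array, with a gap wider than the range within either line. The means were 4.79 ± 0.18 in the mutant and 3.86 ± 0.23 in the wild type (SD, n = 3). ASN1 thus differed by 0.93 on the log2 scale (SE 0.18), or 1.90-fold, with a 95% interval from 1.43-fold to 2.52-fold. The adjusted p from limma was 0.0871, so ASN1 did not pass. Its unadjusted p of 0.000522 ranked 170 among the 28387 genes. An exact two-sided permutation test over all 20 ways to split the arrays gave 0.1, the smallest that 3 against 3 allows. ASN1 passed in 2 of the alternative settings, without the dimmest 50% of genes (adjusted p = 0.0367) and with a variance trend and robust fitting (adjusted p = 0.0460). In these settings 196 of 14193 and 375 of 28387 genes passed, against 97 of 28387 in the limma fit without them.

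The sister genes of ASN1 had means that lay lower in the mutant. ASN2, an asparagine synthetase gene that is active in the light, had 7.71 ± 0.03 in the mutant and 7.92 ± 0.19 in the wild type, and ASN3 had 5.76 ± 0.66 and 6.34 ± 0.11 (log2 values, SD, n = 3). For ASN3, mutant replicate 3 lay at 5.02, below 6.31 and 5.93 on the other mutant arrays. Neither difference passed (adjusted p from limma 0.650 and 0.464), and whether the genes differ in their change was not tested. Among 12 other genes for asparagine, glutamine and ammonium enzymes, these 2 included, none passed by limma (2 at an unadjusted p under 0.05). The mean was higher in the mutant for 3 and lower for 9, beside a higher mean in 48.4% of all genes, with a median log2 fold change of -0.20. The smallest p-values in that list belonged to GLN1;2, a cytosolic glutamine synthetase gene (-0.56, SE 0.17, adjusted p = 0.236), and GS2, the glutamine synthetase gene of chloroplasts (-0.45, SE 0.20, adjusted p = 0.405).

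DIN1, or SEN1 (AT4G35770), encodes a chloroplast protein with a sulfurtransferase-like domain and is used as a marker of senescence and darkness. Its log2 values were 5.12, 4.97 and 4.73 in the mutant and 4.37, 4.16 and 5.07 in the wild type. The mutant arrays lay close together above wild type replicates 1 and 2, and wild type replicate 3 lay among the mutant arrays. The log2 fold change was 0.41 (SE 0.24, adjusted p from limma 0.540), and without wild type replicate 3 it was 0.67 (SE 0.19, adjusted p = 0.240), while without wild type replicate 2 it was 0.22 (adjusted p = 0.820). STR16, a gene of the same sulfurtransferase family, had a log2 fold change of 0.30 (adjusted p = 0.514), and STR17 and STR18 had 0.05 and -0.09.

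The 3 genes with roles in carbohydrate metabolism all had lower means in the mutant, by -0.34 to -0.11 on the log2 scale, and their arrays overlapped. DIN2 (AT3G60140) encodes beta-glucosidase 30, of a family that releases glucose from glycosides. It had 2.22, 2.23 and 2.52 in the mutant and 2.27, 2.49 and 3.24 in the wild type. The difference of -0.34 (SE 0.25, adjusted p from limma 0.628) rested on wild type replicate 3, and without that array it was -0.06 (SE 0.19), while without wild type replicate 1 it was -0.54 (adjusted p = 0.536). A family relative, BGLU15, had -0.50 (SE 0.31), while BGLU28, BGLU29, BGLU31 and BGLU32 lay between -0.13 and 0.35, and none of the 5 passed or had an unadjusted p under 0.05 by limma.

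DIN9 (AT1G67070) encodes phosphomannose isomerase 2, which interconverts fructose 6-phosphate and mannose 6-phosphate. Its values were 3.41, 3.80 and 3.82 in the mutant and 4.25, 4.10 and 3.43 in the wild type. Wild type replicate 3 again stood apart from the other 2 arrays of its line, here at the low end. The log2 fold change was -0.25 (SE 0.23, adjusted p = 0.727 from limma) with all arrays and -0.50 (SE 0.19, adjusted p = 0.368) without that array. It was -0.088 without wild type replicate 1, -0.16 without wild type replicate 2 and -0.12 without mutant replicate 1. PMI1, the other phosphomannose isomerase gene, had -0.20 (adjusted p = 0.720).

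DIN10 (AT5G20250) belongs to the raffinose synthase family as raffinose synthase 6. It had 4.20, 4.60 and 3.99 in the mutant and 4.34, 4.58 and 4.20 in the wild type, which differ by -0.11 (SE 0.20, adjusted p = 0.878 from limma). Replicate 2 was the high array and replicate 3 the low one in both lines. Of 9 other raffinose and mannose enzyme genes none passed by limma (1 at an unadjusted p under 0.05), 3 had a higher and 6 a lower mean in the mutant, and the median log2 fold change was -0.10. SIP2, of the same family as DIN10, had the smallest p of that list, with 0.48 (SE 0.16, adjusted p = 0.294), followed by the stachyose synthase gene RS4 with -0.51 (SE 0.24, adjusted p = 0.442).

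The breakdown of leucine, isoleucine and valine was represented by 3 genes that act in its first steps. BCAT2 (AT1G10070), a branched-chain aminotransferase gene for the step that removes the amino group, had 3.07, 2.88 and 2.67 in the mutant and 2.11, 2.82 and 2.55 in the wild type. The arrays overlapped, although 2 of the 3 mutant arrays lay above all wild type arrays. The log2 fold change was 0.38 (SE 0.21, adjusted p = 0.515 from limma), and it was 0.19 without wild type replicate 1, the lowest array, and 0.54 (unadjusted p = 0.0373) without wild type replicate 2.

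DIN3 and DIN4 encode subunits of the mitochondrial complex that oxidises the resulting keto acids. DIN3 (AT3G06850), the E2 acyltransferase gene listed as BCE2 in the RefSeq table, had 5.49, 5.48 and 5.10 in the mutant and 5.50, 5.66 and 5.20 in the wild type. DIN4 (AT3G13450), a gene for the beta subunit of the E1 decarboxylase, had 5.52, 4.94 and 5.42 in the mutant and 5.18, 5.52 and 4.63 in the wild type. The arrays of the lines overlapped for both genes, with log2 fold changes of -0.09 (SE 0.19) and 0.18 (SE 0.25), and replicate 3 was the lowest array of each line for DIN3. The second E1 beta gene, BCDH BETA1, had 0.36 (SE 0.17, adjusted p = 0.446 from limma) with all mutant arrays above the wild type arrays.

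Beyond these 3 genes, 17 others of branched-chain amino acid breakdown were measured. None passed and none had an unadjusted p under 0.05 by limma, 10 had a higher and 7 a lower mean in the mutant, and the median log2 fold change was 0.03. BCAT1, the neighbour of BCAT2 on chromosome 1 and of the same family, had -0.47 (SE 0.21, adjusted p = 0.414), with the mutant arrays below the wild type arrays. IVD, the isovaleryl-CoA dehydrogenase gene of leucine breakdown, named after its values were seen, had the lowest log2 fold change of the list, -0.64 (adjusted p = 0.501). Its values were 6.91, 7.14 and 5.72 in the mutant and 7.50, 7.34 and 6.84 in the wild type, so mutant replicate 3 lay far below the other arrays.

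Branched-chain aminotransferase genes outside this breakdown route gave 1 larger value. BCAT4, which acts in methionine chain elongation for glucosinolates, had 8.48 ± 0.27 in the mutant and 7.52 ± 0.13 in the wild type (SD, n = 3), a difference of 0.96 (SE 0.18, adjusted p = 0.0804 from limma). BCAT3 and BCAT6 had 0.06 and -0.09.

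The last 2 genes have roles that are less well known. DIN11 (AT3G49620) encodes a protein of the 2-oxoglutarate-dependent dioxygenase family, and had 2.36, 2.79 and 3.18 in the mutant and 2.54, 2.94 and 2.60 in the wild type. The wild type arrays lay inside the mutant range, and the log2 fold change was 0.08 (SE 0.23, adjusted p = 0.927 from limma). Its neighbour AT3G49630 had 0.34 (SE 0.28, adjusted p = 0.678). DRM1 (AT1G28330), a dormancy-associated gene that is also high in resting buds, had 4.69, 4.59 and 4.63 in the mutant and 4.64, 4.38 and 4.15 in the wild type. The mutant arrays were nearly level, with an SD of 0.05, and wild type replicate 1 lay among them. The log2 fold change was 0.24 (SE 0.17, adjusted p = 0.618), with 0.13 without wild type replicate 3 and 0.37 without wild type replicate 1, and the related gene DRM2 had 0.39 (SE 0.21, adjusted p = 0.504).

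**Figure D2:**
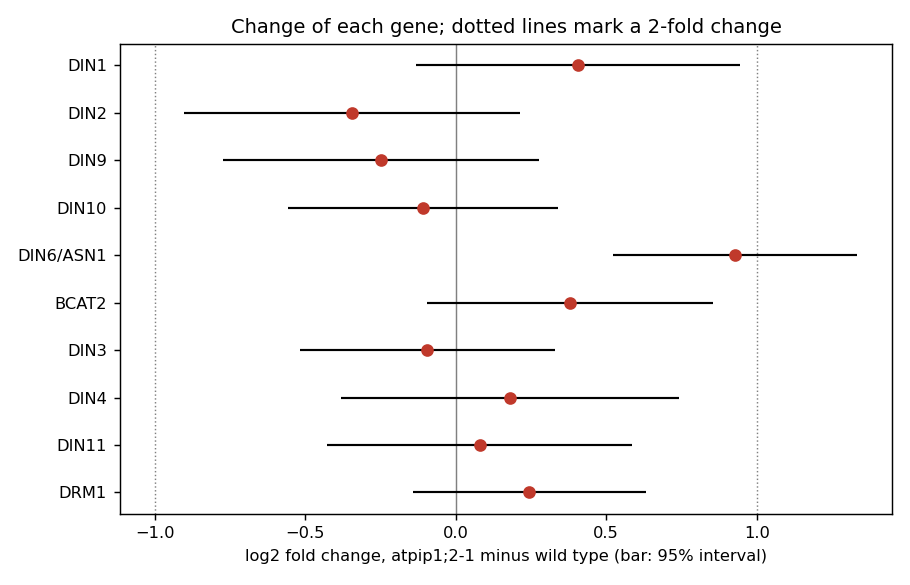
Log2 fold change of each of the 10 genes (horizontal axis, atpip1;2-1 minus wild type), as a point with its 95% interval from limma. Dotted lines mark a 2-fold change either way. Only the interval of ASN1, from 0.52 to 1.33, leaves out 0 and crosses a dotted line.

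The intervals bound how large a difference in the other genes could be. For 9 of the 10 genes the unadjusted 95% interval lay inside a 2-fold change either way, beside 90.0% of all genes, so the share is that of the whole table. The widest upward reach among the 9 was that of DIN1, to 1.93-fold, and the farthest downward that of DIN2, to 0.535 of the wild type level. Differences close to 2-fold therefore remain possible for DIN1 and DIN2, and smaller ones for each of the 9.

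The 10 genes differed in their deviations from array to array, and whether they move together was not tested. DIN3 and DIN10 followed each other most closely, with a root mean square difference of 0.13 between their log2 values, each taken about its own mean over the 6 arrays. The median over the 45 pairs was 0.41. This measure also grows with the size of each gene's own differences, and it was not computed for pairs of other genes. ASN1 was no closer than 0.35 to any of the other 9, with BCAT2 nearest and DIN2 farthest at 0.75. Averaged over the 10 genes, the deviation of a gene from its own mean was 0.05, 0.10 and 0.06 on the mutant arrays and -0.13, 0.06 and -0.14 on the wild type arrays. The median over the 10 genes was 0.13, 0.08 and 0.02 on the mutant arrays and -0.10, 0.17 and -0.17 on the wild type arrays. Over all genes the median lay between -0.008 and 0.002 on every array.

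**Figure D3:**
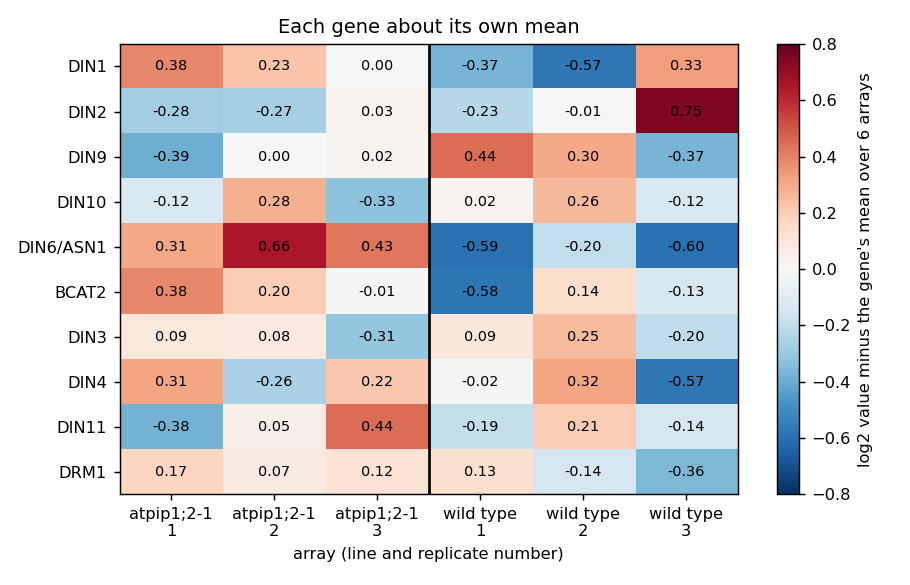
Log2 value of each of the 10 genes minus its own mean over the 6 arrays, by array (mutant left of the black line, wild type right). Wild type replicate 3 is red for DIN1 and DIN2 and below the mean for all the others, most strongly for ASN1, DIN4, DIN9 and DRM1. The row of ASN1 is red on all mutant arrays and blue on all wild type arrays.

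Most of these genes had wider ranges over the wild type arrays than over the mutant arrays, which was not tested. The range over the wild type arrays was the wider in 8 of the 10 genes, against 48.4% of all genes, as for DIN1 with a range of 0.39 in the mutant and 0.90 in the wild type. DIN2 had 0.31 in the mutant and 0.98 in the wild type. The median range over all genes was 0.40 in the mutant and 0.39 in the wild type. The residual SD lay above the median of all genes in 7 of the 10, with a median of 0.31 beside 0.23 over all genes. Wild type replicate 3 was the highest or lowest of the 6 arrays for 4 of the 10 genes, beside 37.8% of all genes, and mutant replicate 1 for 6 of the 10, beside 28.2%.

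The measured genes of the signalling chain above this set showed small differences in transcript, and SnRK1 activity was not measured. Of 15 listed genes for SnRK1 subunits and bZIP factors, 12 were measured, and bZIP1, bZIP11 and bZIP44 were not analysed here. None of the 12 passed by limma, and 1 had an unadjusted p under 0.05, against 12.2% of all genes. The mean was higher in the mutant for 6 and lower for 6. All 12 unadjusted 95% intervals lay within 2-fold, beside 90.0% of all genes. KIN10 and KIN11, the catalytic subunit genes of SnRK1, had log2 fold changes of 0.03 and 0.05 and were named after their values were seen. The smallest p belonged to bZIP2, a close relative of bZIP11, with 0.40 (SE 0.17, adjusted p = 0.368 from limma), and bZIP25 came next with -0.27 (SE 0.19, adjusted p = 0.624).

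Among 16 other genes that sugar represses, 1 rose in the mutant and 15 did not pass, beside 0.342% of all genes past the threshold. By unadjusted p from limma, 4 lay under 0.05 (3 higher and 1 lower), or 25% against 12.2% of all genes. The arrays of the lines lay apart for 5 genes higher and 1 lower in the mutant, against 18.5% of all genes. The median log2 fold change was 0.01. The gene that passed was KMD4, for a Kelch-repeat F-box protein that acts on cytokinin response regulators. It had 7.74, 7.35 and 7.65 in the mutant and 6.47, 6.70 and 6.49 in the wild type, so that the lines lay well apart. The log2 fold change was 1.03 (SE 0.17, adjusted p = 0.0477 from limma), close to the threshold. The call ended without any 1 of the 6 arrays (0.95 to 1.14, adjusted p from 0.0743 to 0.185) and with quantile normalization applied again (adjusted p = 0.0562). Its relative KMD1 had 0.54 (adjusted p = 0.257), and the trehalose phosphate synthase family gene TPS8 had 0.59 (adjusted p = 0.272), both named after their values were seen. Mean differences of the other sign included the proline dehydrogenase gene PRODH1, also named after its values were seen, with -0.38 (adjusted p = 0.378).

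**Figure D4:**
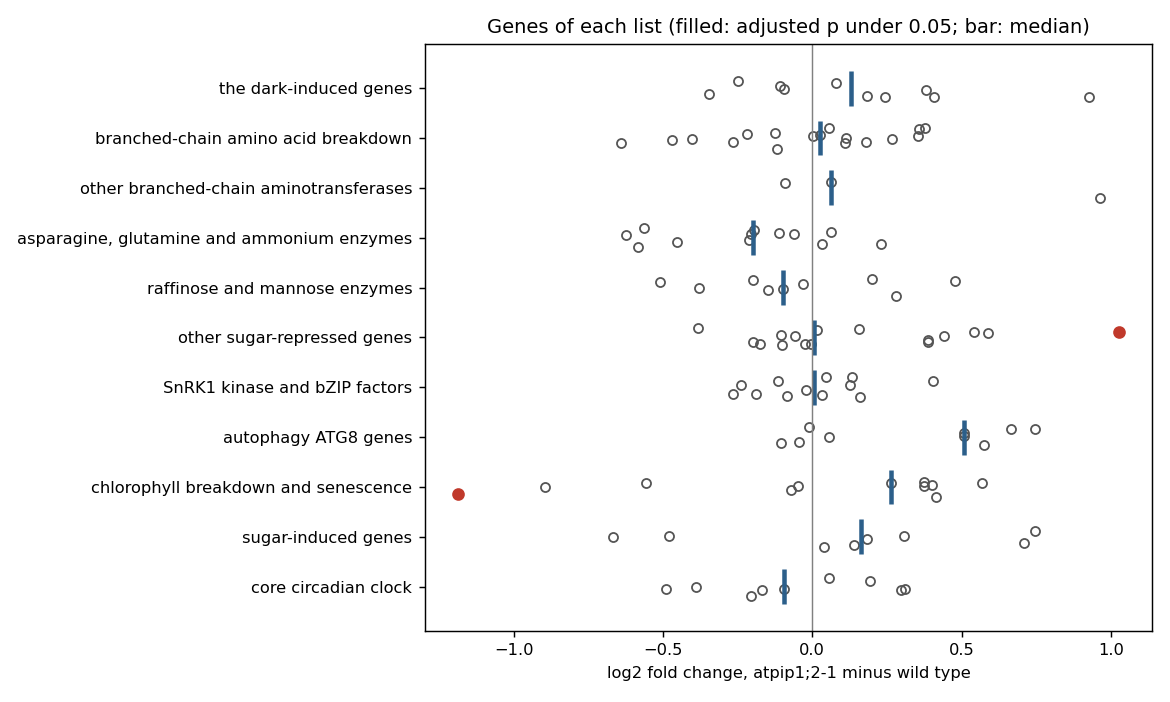
Log2 fold changes (horizontal axis, atpip1;2-1 minus wild type) of the 10 dark-induced genes and of 10 other gene lists (rows). Each circle is a gene, filled where its adjusted p was under 0.05 (KMD4 at 1.03 and WRKY53 at -1.19), and the blue bar is the list's median. Medians lie between -0.20 and 0.51, and every row holds genes on both sides of 0.

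Genes of other processes that darkness brings on are set beside them. None of the 9 ATG8 genes, whose products build autophagosome membranes, passed by limma, and the median log2 fold change was 0.51. An unadjusted p under 0.05 was found for 4 of the 9, or 44.4% against 12.2% of all genes, all higher in the mutant. ATG8B had 0.58 (SE 0.16, adjusted p = 0.194) and ATG8E had 0.67 (SE 0.20, adjusted p = 0.229). With the dimmest 50% of genes left out, 7 of the 9 remained measured and their median was 0.06. Of 11 genes of chlorophyll breakdown and senescence, 1 fell and 10 did not pass, with a median of 0.27. At an unadjusted p under 0.05 by limma, 3 were higher and 3 lower, or 55% of the list against 12.2% of all genes. The one that fell was WRKY53, a transcription factor gene of early senescence and defence, with 2.97 ± 0.07 in the mutant and 4.16 ± 0.19 in the wild type (adjusted p = 0.0219). Its call held without wild type replicate 3 (adjusted p = 0.0408) and ended without each of the other 5 arrays in turn (adjusted p from 0.0823 to 0.114).

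None of the 8 sugar-induced genes passed by limma. An unadjusted p under 0.05 was found for 3 (2 higher and 1 lower), or 37.5% against 12.2% of all genes. The mean was higher in the mutant for 6 of the 8, beside 48.4% of all genes, with a median log2 fold change of 0.16. PAP1, a regulator of anthocyanin synthesis, had 0.75 (SE 0.16, adjusted p = 0.113 from limma), and the hexokinase and glucose sensor gene HXK1 had 0.71 (SE 0.15, adjusted p = 0.113). The β-amylase gene BAM5, named after its values were seen, had -0.67 (SE 0.21, adjusted p = 0.245), with every mutant array below every wild type array. Because ASN1 and other genes of this set also vary through the day, the 9 core clock genes are given as well: none passed (1 at an unadjusted p under 0.05 by limma), the median was -0.09, and TOC1 had the smallest p, with -0.49 (SE 0.15, adjusted p = 0.236), followed by ELF4 with -0.39 (SE 0.22, adjusted p = 0.511). Their part in the ASN1 difference was not tested.

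The genes whose values followed ASN1 most closely over the 6 arrays were AT3G21755, the peroxidase gene PRXCA and AT5G66590, at root mean square differences of 0.09, 0.11 and 0.12, among 28377 genes compared. Their log2 fold changes were 0.88, 0.81 and 0.91, beside 0.93 for ASN1, with every mutant array above every wild type array. The likeness was picked over all these genes and includes that difference between the lines. None of the 3 passed the threshold (adjusted p from limma 0.0708, 0.130 and 0.153), and PRXCA was dim, at the 24th percentile by mean. By position, 5 of the 10 dark-induced genes lie on chromosome 3 in the RefSeq table, 3 on chromosome 1 and 1 each on chromosomes 4 and 5. Of the 20 measured genes next to them on either side, none passed and 1 had an unadjusted p under 0.05 by limma, AT1G67060 beside DIN9, with -0.54 (adjusted p = 0.396).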

How the data were processed

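The authors deposited log2 expression values per AGI locus code and array. Per the submitters' processing notes, RMA and Partek were used; the sources used here give no version, probe annotation or genome build. Another deposited table gives 1 log2 value per probe set (scale read from its values); 16574 of its 38408 probe sets matched 1 gene, 16411 genes in all, with none of the 10 dark-induced genes among them. All 28387 genes were fitted in R 4.3.3 (lmFit and eBayes of limma 3.58.1, without covariates; two-sided tests), and p-values were adjusted over all genes by Benjamini-Hochberg. The labels call the arrays biological replicates. Alternatives were the probe-set table, filters on dim genes, other moderation, weights or scaling, the replicate block and each array left out. The tables hold no detection calls, so dim genes were kept, and 4 of the 10 genes lay among the dimmest 50% by mean; the number of arrays limits the precision. The fit was also run on simulated data with independent noise and planted changes, which cannot show how calls depend on single arrays. Symbols of listed genes came with the gene lists and differ in places from those of RefSeq (TAIR10.1), which held 27681 of the genes. RefSeq gave the positions and the symbols of genes outside the lists. The members and lists were chosen with earlier results of these data known. From each list, genes past the threshold (up to 4) or else the 2 with the smallest p were named, with close relatives of the 10. BAM5, CER6, PDF1, TPS8, PRODH1, KIN10, KIN11, IVD and KMD1 were named after their values were seen. Figures were drawn with matplotlib 3.10.9. Sequences were not analysed here.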

Additional observations from a re-analysis of the deposited data

How the results depend on the processing

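The count of the 10 dark-induced genes past the threshold was 0 in the limma fit (1 at an unadjusted p under 0.05) and was recomputed under 13 alternatives, since the probe-set table named none of them. It was 1, ASN1, without the dimmest 50% of genes, where 6 of the 10 were tested and 196 of 14193 genes passed. With a variance trend and robust fitting, where 375 of 28387 genes passed, the count was again 1, ASN1. It stayed 0 in the other 11. The log2 fold change of ASN1 lay between 0.83 and 1.06, with adjusted p between 0.0367 and 0.267, and between 0.83 and 1.06 with 1 array left out. Without wild type replicate 3, DIN1 (0.67) and DIN9 (-0.50) also had an unadjusted p under 0.05, as did BCAT2 (0.54) without wild type replicate 2 and DIN1 (0.58) with array weights. The sign of DIN11 turned with array weights (-0.046). With 1 array left out in turn, the sign also turned for DIN3 (-0.22 to 0.035) and DIN4 (-0.060 to 0.39), DIN10 (-0.28 to 0.028) and DIN11 (-0.12 to 0.29). The median of the 10 lay between -0.01, without wild type replicate 3, and 0.21. Over all genes, 97 passed in the limma fit, against 31 in the probe-set table, 196 without the dimmest 50% of genes, 375 with a variance trend and robust fitting, 45 with the replicate number as a block, and 14 to 48 with 1 array left out. Same-numbered arrays of the 2 lines had correlations of deviations of 0.01, 0.05 and 0.07, and differently numbered arrays from -0.08 to 0.05. The numbers were not taken to pair the arrays, and whether they do was not tested. With the replicate block, ASN1 had an adjusted p from limma of 0.0998, KMD4 0.108, WRKY53 0.0646 and CER1 0.105. The cause of these shifts was not tested.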

Other observations

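Markers of other leaf cell types were measured beside the dark-induced genes. Of 7 epidermis and guard cell markers, 1 fell and 6 did not pass by limma. An unadjusted p under 0.05 was found for 3 of the 7 (1 higher and 2 lower), or 42.9% against 12.2% of all genes. The one that fell was CER1, a gene of alkane synthesis for leaf wax. It had 5.70 ± 0.04 in the mutant and 6.65 ± 0.17 in the wild type (SD, n = 3), with an adjusted p of 0.0491 from limma. That call ended without each of the 6 arrays in turn (adjusted p from 0.0746 to 0.205) and with equal array medians (adjusted p = 0.0516). CER6, another leaf wax gene, and the epidermal gene PDF1, both named after their values were seen, had 0.75 (adjusted p = 0.153) and -0.94 (adjusted p = 0.194). The summed log2 level of the 7 markers was 8.87 to 9.09 in the mutant and 8.75 to 8.96 in the wild type. None of 5 vascular markers passed or had an unadjusted p under 0.05 by limma, with summed levels of 8.54 to 8.76 in the mutant and 8.50 to 8.63 in the wild type; the sucrose transporter gene SUC2 differed by 0.33 on the log2 scale (SE 0.17, adjusted p = 0.480) and the sieve element gene SEOR1 by -0.28 (SE 0.16, adjusted p = 0.519). The mesophyll markers with the smallest p were LHCB1.3 (0.68, SE 0.16, adjusted p = 0.142) and LHCB1.4 (0.39, SE 0.15, adjusted p = 0.356). The root marker genes IRT1 and PRP3 had 0.15 and 0.13, and the flower genes AP3 and SEP3 had -0.50 and 0.31, with adjusted p from 0.350 to 0.807.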
